A study of Mus musculus with 8 samples.

Results

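Genes of macrophages that take up lipid, and of the monocytes from which such cells are recruited, were followed in the livers of mice fed an atherogenic diet. The genes listed were Trem2, Tyrobp, Gpnmb, Cd9, Cd63, Spp1, Lgals3, Itgax, Itgam and Ly6c1. Their members on the array were the non-control probes that carry one of these gene names in the design of the Agilent whole mouse genome array. The rule found 15 of 41174 probes, for 9 of the 10 genes, and no probe in the files used carries the name Ly6c1. A further 2 probes carry the older name Ly6c and are described separately.

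The livers came from male wild-type mice, labelled C57BL/6 and named C57BL/6J in the study's methods, that were 14 to 17 weeks old when the experiment began. For 4 weeks, 4 mice ate standard chow (STD) and 4 ate the atherogenic diet (ATH), which is rich in fat and cholesterol and contains cholic acid. Both groups were wild type, and each of the 8 arrays held the RNA of 1 liver, homogenized whole, so that every value below is an average over all cell types of the liver. In such bulk tissue, more cells of a type and more RNA per cell cannot be told apart. Of 12 hepatocyte genes listed as markers of the tissue, 11 were detected. Each diet had a slide of its own, and for that reason effects of slide and of diet cannot be told apart. Between 72.3% and 77.8% of spots were well above background on each array.

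Trem2 is a lipid-sensing receptor on the surface of macrophages, and it signals through the adaptor Tyrobp (DAP12), which recruits the kinase Syk. Macrophages that carry Trem2, together with Gpnmb, Cd9, Cd63, Spp1 and Lgals3, are known as lipid-associated macrophages in adipose tissue, in atherosclerotic plaques and in fatty liver, where they descend largely from blood monocytes rather than from the resident Kupffer cells. The integrins Itgam (CD11b) and Itgax (CD11c) and the surface protein Ly6C are used to tell such incoming cells from resident ones.

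Of the 15 probes, 13 were detected (on at least 3 arrays of one diet or the other) and were tested with limma, together with all 31055 detected probes that could be tested. With the false discovery rate set to 5%, 8 of the 13 probes rose on the atherogenic diet and 0 fell. Over all probes tested, 7.99% passed, 3.06% higher and 4.94% lower. For 10 of the 13 every ATH liver lay above every STD liver, as was so for 6.01% of all probes. The 8 probes stand for 6 genes, namely Trem2, Tyrobp, Gpnmb, Cd9, Lgals3 and Itgax. The median log2 fold change of the 13 probes was 1.79, against -0.15 for all probes. At the stricter rate of 1%, the Gpnmb probe was the single one that passed, where 0.193% of all probes rose. This probe, also among the 8, was detected on ATH arrays only, so its calls rest on STD signals at background. Levels below are log2 processed signals minus the 75th percentile of the same array, and a log2 fold change is the difference of such levels, ATH minus STD. The scaling sets the zero of these changes, since the median over all probes was 0.30 without scaling and 0.16 when arrays were scaled by spike-in probes. By these scalings 10 and 9 of the 13 probes rose. Of all 31055 probes, 7365 and 2935 passed in either direction by the same scalings, against 2482 by the main one. By limma 5 rose without STD replicate 1, where 412 of all probes passed in either direction. By the unequal-variance test of the study's methods 0 of the 13 passed. At an unadjusted p under 0.05 by that test there were 9, as were 7105 of all 31055 probes.

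**Figure D1:**
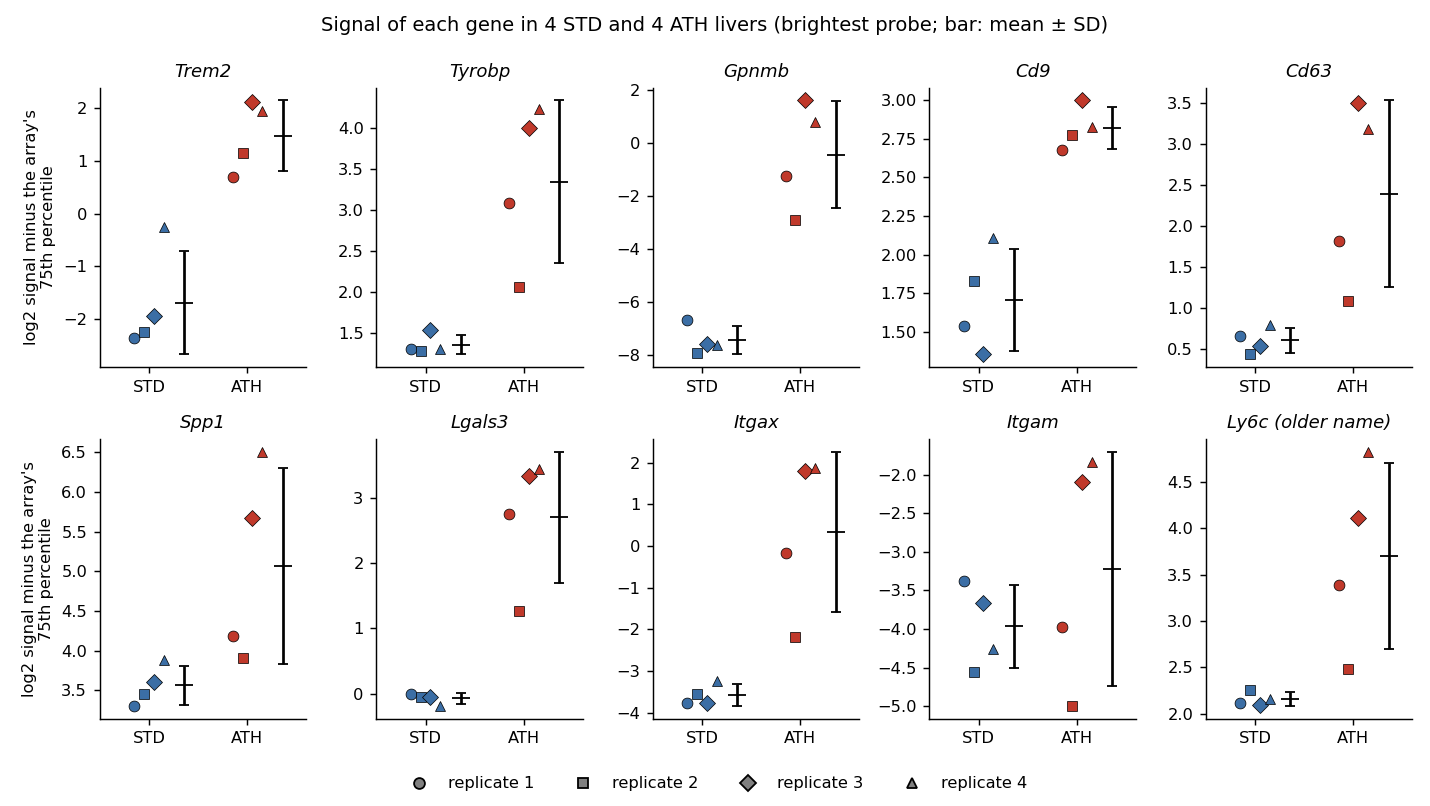
Level of each gene (vertical axes, log2 processed signal minus the 75th percentile of the array, each panel on its own scale) in 4 STD livers (blue) and 4 ATH livers (red), at the gene's brightest probe and at the brighter probe named Ly6c. Marker shapes give the replicate number and bars the mean ± SD. The diets overlap for Itgam and for no other gene drawn, and ATH replicate 2 is the lowest ATH liver for every gene drawn except Trem2 and Cd9.

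The receptor Trem2 rose by both of its probes. By the brighter probe, A_51_P269546, the STD levels were -2.35, -2.23, -1.93 and -0.25 in replicates 1 to 4, and the ATH levels were 0.69, 1.14, 2.11 and 1.94. Every ATH liver lay above every STD liver, and STD replicate 4 stood well above the other STD livers. The rise was 3.16 log2 units (SE 0.50, n = 4 per diet, limma adjusted p = 0.0141), an 8.95-fold difference. The second probe, A_51_P269549, lies 302 bases before the first on chromosome 17 (start 46496563, mm7). It gave a log2 fold change of 2.78 (SE 0.40, limma adjusted p = 0.0107), again with no overlap and with STD replicate 4 as the highest STD liver, at -2.48. The probe's sequence is given here because its 60 bases are spread over 137 bases of the genome, so that it crosses a splice junction and reads spliced message. The same holds for the Tyrobp probe, which is spread over 1728 bases of chromosome 7 (27358831 to 27360558, mm7).
Trem2 A_51_P269549: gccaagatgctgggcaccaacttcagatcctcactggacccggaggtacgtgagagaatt
Tyrobp A_51_P261517: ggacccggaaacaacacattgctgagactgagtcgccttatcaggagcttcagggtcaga

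Tyrobp, the adaptor that carries the Trem2 signal into the cell, also rose. Its STD levels were 1.31, 1.28, 1.53 and 1.31, and its ATH levels were 3.08, 2.06, 4.01 and 4.24. The STD livers lay close together and the ATH livers were spread over 2.17 units, all above the STD livers. Tyrobp rose by 1.99 log2 units (SE 0.42, limma adjusted p = 0.0311). This call was lost when any of the STD livers, ATH replicate 3 or ATH replicate 4 was left out (adjusted p between 0.0642 and 0.0826), while the log2 fold change stayed between 1.69 and 2.42.

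Gpnmb, a lysosomal and cell surface glycoprotein of lipid-laden macrophages, had the largest fitted rise of all probes tested. On the STD diet the probe A_51_P438967 was not well above background on any array, with processed signals of 1.99 to 4.67. On the atherogenic diet it was detected on all 4 arrays, with signals of 255, 73.7, 2065 and 1219 in replicates 1 to 4. As levels, the ATH livers stood at -1.27, -2.91, 1.59 and 0.79, so that replicates 3 and 4 were far above replicate 2. Since the STD levels are only bounds, the change is given as at least 32.4-fold, set against the lowest signals that were well above background on the STD arrays (fitted log2 fold change 7.0, limma adjusted p = 0.00678). This bound fell to 20.2-fold without ATH replicate 3 and reached 57.2-fold without ATH replicate 2, and the call held whichever liver was left out. A second Gpnmb probe, A_52_P417819, lies 726 bases further along chromosome 6 (start 49017163, mm7), was detected on no array and was not tested. Thus the rise of Gpnmb rests on 1 probe.

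Lgals3 encodes galectin-3, a lectin secreted by activated macrophages. Its STD levels were -0.01, -0.05, -0.05 and -0.19, and its ATH levels were 2.75, 1.27, 3.34 and 3.44. All ATH livers lay above the STD livers, whose spread was small. The log2 fold change was 2.77 (SE 0.42, limma adjusted p = 0.0134), and it passed 5% whichever liver was left out. Its probe spans 817 bases of chromosome 14 (42712515 to 42713331, mm7) and so crosses a splice junction as well.
Lgals3 A_51_P101929: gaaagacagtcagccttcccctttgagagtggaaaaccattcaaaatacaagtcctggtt

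Spp1 encodes osteopontin, a secreted ligand of integrins and of Cd44 that is also made by cholangiocytes and other liver cells. Its STD levels were 3.31, 3.46, 3.61 and 3.88, and its ATH levels were 4.19, 3.91, 5.68 and 6.50. ATH replicate 2 lay just above the highest STD liver and replicates 3 and 4 were clearly higher. The log2 fold change of 1.5 (SE 0.52) did not pass 5% (limma adjusted p = 0.103), although the diets did not overlap. It passed when ATH replicate 2 was left out (log2 fold change 1.89, limma adjusted p = 0.0391).

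Among the tetraspanins, membrane proteins that organize receptors and vesicles, Cd9 rose and Cd63 missed the threshold. Cd9 stood at 1.54, 1.83, 1.35 and 2.11 in the STD livers and at 2.68, 2.78, 3.0 and 2.82 in the ATH livers. At this probe it was the member with the smallest spread between ATH livers, and the diets did not overlap. Its log2 fold change was 1.11 (SE 0.18, limma adjusted p = 0.0149). A dimmer probe for Cd9, A_51_P320626, was detected on 2 of the 4 STD arrays and all ATH arrays and rose by 1.6 (SE 0.24, limma adjusted p = 0.0120), and another, A_51_P323341, was detected on no array. These dimmer probes are drawn from cDNA clones and lie 16584 and a further 19113 bases along chromosome 6 from the brightest one (start 125482335, mm7).

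Cd63, a tetraspanin of late endosomes and lysosomes, stood at 0.66, 0.43, 0.54 and 0.79 in the STD livers and at 1.82, 1.09, 3.50 and 3.18 in the ATH livers. No ATH liver reached down to the STD livers, but replicates 3 and 4 lay far above replicates 1 and 2. Cd63 had a log2 fold change of 1.79 (SE 0.48), with a limma adjusted p of 0.0541. Without ATH replicate 2 it was 2.23 and passed, with an adjusted p of 0.00936. Its probe spans 214 bases of chromosome 10 (128413370 to 128413583, mm7) across a splice junction.
Cd63 A_51_P511810: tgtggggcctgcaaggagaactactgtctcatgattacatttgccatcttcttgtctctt

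The integrins divided. Itgax, the alpha chain of CD11c/CD18, stood at -3.77, -3.54, -3.77 and -3.23 in the STD livers by the probe A_51_P303424, and at -0.16, -2.18, 1.80 and 1.88 in the ATH livers. All ATH livers were above the STD livers, and replicates 3 and 4 were about 4 units above replicate 2. The log2 fold change of 3.91 (SE 0.80, limma adjusted p = 0.0288) was the 8th largest rise among the probes tested. Like that of Tyrobp, the call was lost when any STD liver, ATH replicate 3 or ATH replicate 4 was left out (adjusted p between 0.0589 and 0.0790), with the change between 3.40 and 4.75.

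A second probe named Itgax, A_52_P424887, was drawn from a cDNA clone and lies 16700 bases before the first on chromosome 7 (start 124230396, mm7). Its STD levels were -3.0, -2.82, -2.83 and -2.43 and its ATH levels -3.26, -3.10, -3.41 and -2.81. The diets overlapped and the log2 fold change was -0.38 (SE 0.18, limma adjusted p = 0.197), or 0.07 without scaling. The probes of Itgax therefore disagree, and both sequences are shown so that they can be placed.
Itgax A_51_P303424: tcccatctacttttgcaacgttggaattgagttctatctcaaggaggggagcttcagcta
Itgax A_52_P424887: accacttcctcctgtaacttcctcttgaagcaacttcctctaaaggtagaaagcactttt

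Itgam, the alpha chain of CD11b/CD18 and a marker of monocytes, neutrophils and recruited macrophages, did not pass by either of its probes. By the brighter one, A_52_P669155, the STD levels were -3.38, -4.56, -3.66 and -4.26 and the ATH levels -3.97, -4.99, -2.10 and -1.83. ATH replicates 3 and 4 were above all STD livers, while ATH replicate 2 was below all of them. The log2 fold change was 0.74, with a 95% confidence interval of -0.77 to 2.25 (limma adjusted p = 0.490). The other probe, A_51_P103007, was dim, being detected on 2 of the 4 STD and 3 of the 4 ATH arrays, and gave 0.96 with an interval of -0.46 to 2.38 (limma adjusted p = 0.341).

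Ly6C marks inflammatory monocytes and is also made by endothelial cells. The 2 probes named Ly6c lie 213 bases apart on chromosome 15 (starts 75125619 and 75125832, mm7). The accession of the dimmer one, A_52_P230938, belongs to Ly6c1 in RefSeq, and how far either probe also reads the near-identical gene Ly6c2, which has no probe under its own name, was not tested. The brighter probe stood at 2.12, 2.26, 2.09 and 2.16 in the STD livers and at 3.39, 2.49, 4.11 and 4.82 in the ATH livers. The dimmer one stood at -4.24, -3.79, -4.09 and -3.68, against -1.95, -3.56, -0.87 and -0.01. Neither probe had an ATH liver within the STD range. Their log2 fold changes of 1.54 (SE 0.42) and 2.35 (SE 0.64) did not pass 5%, with the same limma adjusted p of 0.0574. Without ATH replicate 2 both passed, with adjusted p of 0.00766 and 0.00518.

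**Figure D2:**
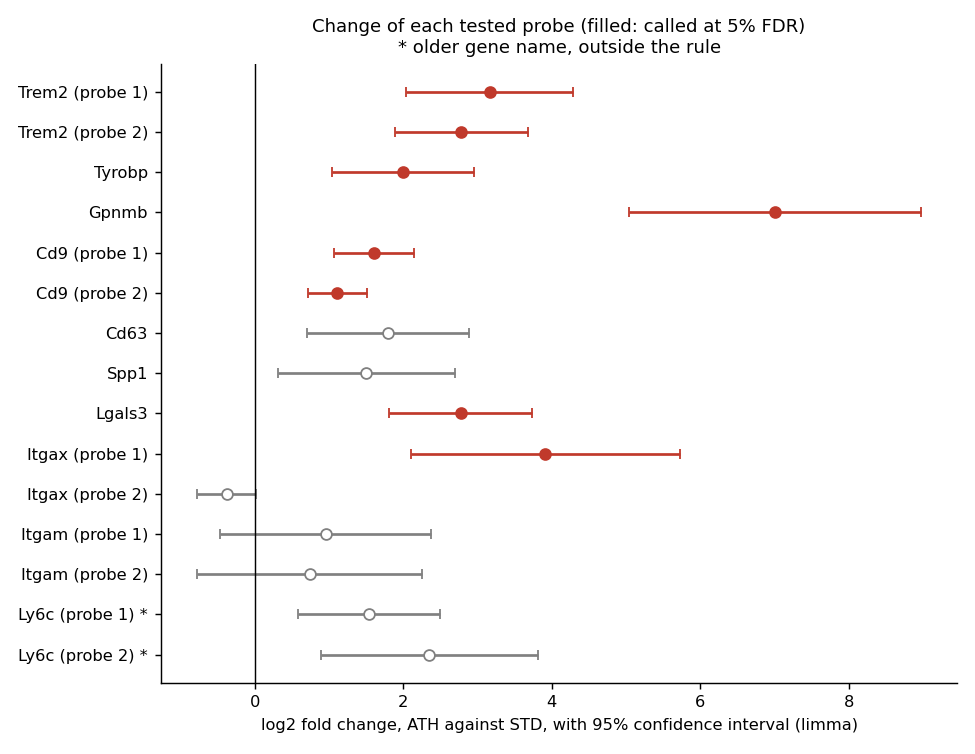
Log2 fold change, ATH against STD, of each tested probe (horizontal axis), with limma's 95% confidence interval. Filled red points passed a false discovery rate of 5%. Probes of a gene are numbered in the order A_51_P269546 and A_51_P269549 for Trem2, A_51_P320626 and A_51_P320852 for Cd9, A_51_P303424 and A_52_P424887 for Itgax, A_51_P103007 and A_52_P669155 for Itgam, and A_51_P197528 and A_52_P230938 for Ly6c. The fitted Gpnmb point of 7.0 rests on STD signals at background.

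The ATH livers differed from each other in the same way for most of these genes. At each gene's brightest probe, ATH replicate 2 was the lowest ATH liver for 7 of the 9 genes and ATH replicate 1 for the other 2, Trem2 and Cd9. The highest was replicate 4 for 5 genes and replicate 3 for 4. The median difference from the STD mean over the 9 genes was 1.73, 1.07, 2.90 and 2.94 log2 units in replicates 1 to 4. The same order was seen in genes of macrophages of any origin, a list of 17 genes such as Cd68, C1qa and Lyz2 of which all 17 were detected. Taken gene by gene, the median difference of this pan-macrophage list from the STD means was 1.18, 0.48, 2.38 and 2.46 log2 units in ATH replicates 1 to 4. ATH replicate 2 was the lowest of the 4, yet 14 of the 17 genes stood above every STD liver there. In that same liver Trem2 was 2.84 log2 units, Gpnmb 4.54, Itgax 1.40, Lgals3 1.34 and Cd9 1.07 above their STD means, while Tyrobp was 0.71, Cd63 0.48 and Spp1 0.35 above and Itgam -1.03 from its STD mean. The STD mean of Gpnmb rests on signals at background. When ATH replicate 2 was left out, 10 of the 13 probes rose at 5%, where 5.70% of all probes did. At 1%, 6 of the 13 rose, a setting in which the share of all probes was not counted.

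**Figure D3:**
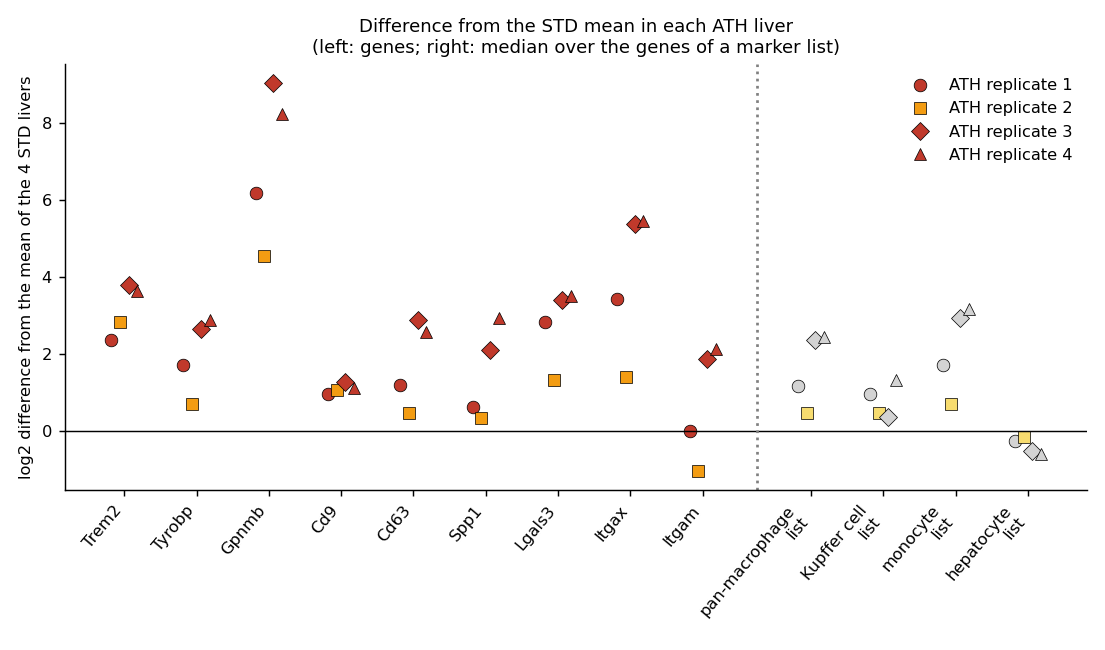
Log2 difference of each ATH liver from the mean of the 4 STD livers (vertical axis), for each gene at its brightest probe (left of the dotted line) and for 4 marker lists as the median over their genes (right). ATH replicate 2 is drawn in orange or yellow. It stands at 0.48 for the pan-macrophage list, at 2.84 for Trem2 and at 4.54 for Gpnmb, whose STD signals were at background.

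To compare these genes with macrophage genes in general, the change of the pan-macrophage list was subtracted from each liver. Genes of this list were higher as a group, with 8 of 17 risen at 5%, 0 fallen and a median log2 fold change of 1.67. With livers paired by replicate number 3 of the 17 rose, where 1383 of all 31055 probes passed in either direction. The list's change in a liver was the median over its genes of the difference from each gene's own STD mean, a measure chosen after the data were seen. Gpnmb had the largest change beyond the list among the members, at 5.38 log2 units (95% confidence interval 3.90 to 6.87, with variances not moderated across probes). The STD signals of Gpnmb were at background, so this change and its interval are those of the fit only. Before the list was subtracted, its rise over the lowest well-detected STD signals was 5.02 log2 units where the fit gave 7.0. Itgax followed at 2.29 (1.04 to 3.55), Trem2 at 1.54 (0.19 to 2.89), Lgals3 at 1.15 (0.70 to 1.6) and Tyrobp at 0.37 (0.15 to 0.59).

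Cd63 at 0.17 (-0.16 to 0.50), Spp1 at -0.12 (-0.73 to 0.49), Cd9 at -0.51 (-1.68 to 0.66) and Itgam at -0.88 (-1.77 to 0.01) had intervals that included 0. The diets did not overlap for Gpnmb, Itgax, Lgals3 and Tyrobp, and 0.29% of all probes were so separated upwards. They overlapped for Trem2, whose values were -2.39, -2.08, -2.01 and -0.29 in STD replicates 1 to 4 and -0.50, 0.66, -0.27 and -0.51 in the ATH livers. Beyond the list, Trem2 was thus highest in ATH replicate 2, and STD replicate 4 lay within the ATH range.

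By limma without moderated variances, 6 of the 13 probes were higher than the list at 5%, where 0.38% of all probes were. These were both Trem2 probes, with adjusted p of 0.0453 and 0.0405, and those of Gpnmb, Lgals3, Tyrobp and the first Itgax probe, each with an adjusted p of 0.0393. The second Itgax probe was lower, as 75.3% of all probes were. Without ATH replicate 2 as well, 5 were higher and 1 was lower, where 0.602% and 94.5% of all probes were, and the brighter Trem2 probe no longer passed (adjusted p = 0.0779). The fit planned first set each array against the median of the list's levels, which mixes probes of unlike brightness and moved by 1.19 log2 units between diets. With moderated variances it called 5 of the 13 higher, where 0.2% of all probes were, and 1 lower, where 32.2% were. Its prior degrees of freedom became infinite, since every probe shares the error of the list, and such p-values are too small. Without moderation that fit called 0 of the 13 by limma (lowest adjusted p = 0.140, 8 at an unadjusted p under 0.05).

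**Figure D4:**
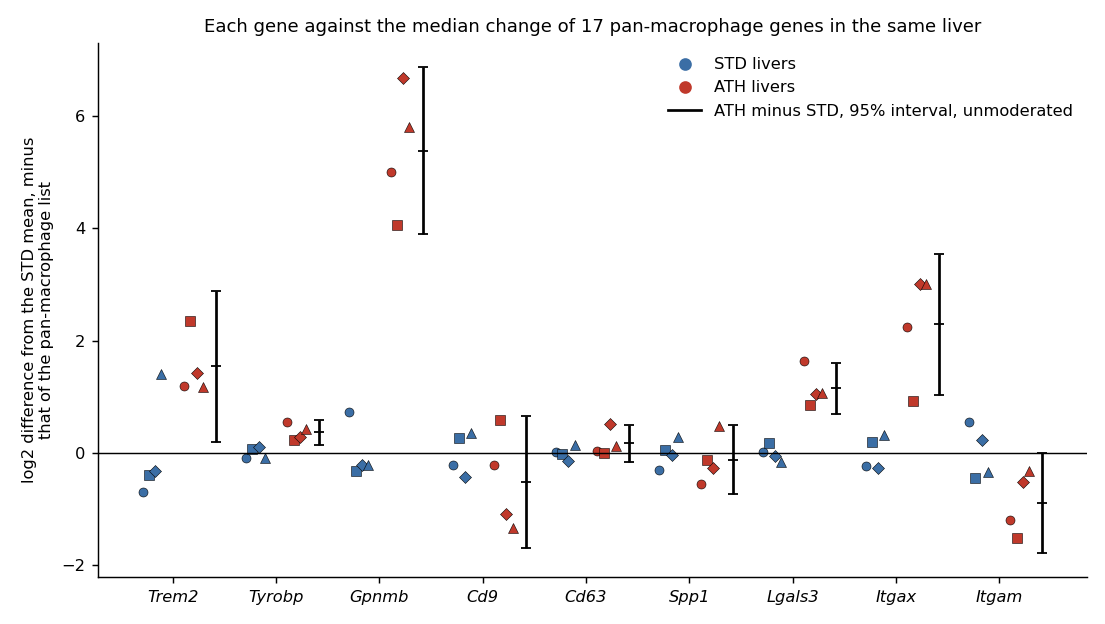
Log2 difference of each gene's brightest probe from its STD mean, minus the median difference of the 17 pan-macrophage genes in the same liver (vertical axis), in 4 STD livers (blue) and 4 ATH livers (red), with marker shapes for replicates 1 (circle), 2 (square), 3 (diamond) and 4 (triangle). Black bars are ATH minus STD with the unmoderated 95% confidence interval. The interval lies above 0 for Trem2, Tyrobp, Gpnmb, Lgals3 and Itgax. The Gpnmb points rest on STD signals at background.

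The resident macrophages of the liver, the Kupffer cells, were represented by 9 detected genes. Of these, 3 rose, 0 fell and 6 did not pass, with a median log2 fold change of 0.65. The changes ran from -1.33 to 3.43, and 8 of the 9 were above 0. The bacteria-binding scavenger receptor Marco rose by 3.43 (SE 0.76, limma adjusted p = 0.0352), Cd5l by 1.69 and Clec1b by 1.44. The defining Kupffer cell genes Clec4f and Timd4 were at 0.32 (SE 0.19, limma adjusted p = 0.290) and 0.94 (SE 0.25, limma adjusted p = 0.0528). Taken gene by gene in the same way, the Kupffer cell list stood 0.96, 0.48, 0.37 and 1.34 above the STD means in ATH replicates 1 to 4. Beyond that list, Gpnmb was 6.24 (unmoderated 95% confidence interval 3.72 to 8.76), Itgax 3.15 (0.89 to 5.40), Trem2 2.40 (0.80 to 4.00) and Lgals3 2.01 (0.90 to 3.12) log2 units higher. Here too the Gpnmb value is that of the fit, with STD signals at background. The diets were separated for Gpnmb, Itgax, Lgals3 and Tyrobp and for the dimmer Trem2 probe, and 0.679% of all probes were separated upwards. They overlapped for the brighter Trem2 probe, of which STD replicate 4, at -0.22, lay above ATH replicate 1, at -0.27. By limma without moderation 5 of the 13 probes were higher at 5%, where 0.38% of all probes were. These were the probes of Gpnmb and Lgals3 (adjusted p = 0.0350 for both), both Trem2 probes (0.0382 and 0.0374) and the first Itgax probe (0.0415), while the second Itgax probe was lower, as 45.7% of all probes were. Here too the adjustment was mild, since 14308 probes passed in either direction, against 20073 at an unadjusted p under 0.05. Set instead against the median of the list's levels, which moved by 1.42 between diets where the list's median gene changed by 0.65, 5 were higher and 1 was lower with moderated variances, where 0.502% and 92.8% of all probes were.

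Around the members, 5 lists of companion genes held 72 detected genes, of which 25 rose and 0 fell. For comparison, 4.05% of all 16556 genes rose and 5.30% fell. The companions' median log2 fold change was 0.79, against -0.14 for all genes. Without ATH replicate 2, 36 companion genes rose and 1 fell, where 1238 of all 16556 genes rose and 1222 fell. Between 8 and 11 passed without any 1 of the STD livers, ATH replicate 3 or ATH replicate 4, and 14 passed with livers paired by replicate number. Of all 31055 probes, 394 to 1021 passed in either direction in those leave-outs and 1383 with livers paired, against 2482 in the main fit.

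Of 19 detected genes that accompany Trem2 in lipid-associated macrophages, 8 rose and 11 did not pass (median 0.58). The elastase Mmp12 was not well above background on any STD array. Set against the lowest well-detected STD signals, it was 3.05-fold higher on the atherogenic diet (limma adjusted p = 0.00700). That value was 2.16 to 3.7 without 1 of the ATH livers. The actin-capping gene Capg rose by 3.1 (SE 0.49, limma adjusted p = 0.0146), the glucan receptor Clec7a by 2.87 and lipoprotein lipase, Lpl, by 2.31 (SE 0.22, limma adjusted p = 0.00364). Lpl had the least spread of these, with ATH livers between 3.40 and 4.12 and STD livers between 1.15 and 1.81. Of other genes of lipid handling in the list, which hepatocytes also express, the cholesterol exporter Abca1 rose by 0.81 (SE 0.13, limma adjusted p = 0.0137). The lipid droplet gene Plin2 (-0.42), the lysosomal lipase Lipa (-0.08), the fatty acid transporter Cd36 (0.10) and apolipoprotein E, Apoe (-0.44, limma adjusted p = 0.0531) did not pass. These 5 genes were named after their values were seen. Vim was the 1 gene of the 8 whose call was lost with livers paired by replicate number (adjusted p = 0.0504).

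Among 16 detected genes of Trem and Tyrobp signalling, 6 rose and 10 did not pass, with a median of 1.67. Clec5a, a receptor that signals through Tyrobp, rose by 3.79 (SE 0.73, limma adjusted p = 0.0245), with STD levels between -4.87 and -4.40 and ATH levels of -1.62, -2.97, 0.28 and 0.86. Sirpb1a, another Tyrobp partner, rose by 2.51, and the exchange factor Vav1 by 1.88. Siglech rose by 2.04 but was above background on 1 STD array. The kinase Syk, which Tyrobp recruits, was at 1.79 (SE 0.58, limma adjusted p = 0.0853), and Trem1, the inflammatory relative of Trem2, was at -0.02 (SE 0.14). Syk and Trem1 were named after their values were seen. With livers paired, 3 of the 6 calls were lost, those of Vav1, Inpp5d and Siglech (adjusted p between 0.0510 and 0.0670).

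The partners of the integrins included Itgb2 (CD18), the beta chain with which Itgam and Itgax pair. It rose by 2.38 (SE 0.60, limma adjusted p = 0.0469), with STD levels between -1.50 and -1.19 and ATH levels of 0.62, -0.76, 2.09 and 2.34. The osteopontin receptor Cd44 rose by 2.04, the integrin ligand Icam1 by 2.03 and Itga4 by 1.92. In all, 5 of 13 detected partners rose and 8 did not pass (median 0.46). With livers paired, Itgb2 (adjusted p = 0.0548), Itgal (0.0523) and Itga4 (0.0687) no longer passed. Of 13 other tetraspanins, the leukocyte gene Cd53 rose by 1.94 (SE 0.48, limma adjusted p = 0.0440, or 0.0573 with livers paired) and 12 did not pass. Their median was -0.00 with the main scaling, 0.44 without scaling and 0.31 with spike-in scaling. Of 11 detected monocyte genes, 5 rose and 6 did not pass, with a median of 2.07. The 5 include the chemokine receptor Ccr2 at 2.34 (SE 0.51, limma adjusted p = 0.0329), which draws monocytes out of the marrow, S100a4 at 2.98, Plac8 at 2.13 and S100a6 at 1.88. Of the 11 genes 9 were above 0. Cx3cr1 was at -0.30 and Gm2a at -0.20 (limma adjusted p = 0.557 and 0.406), both named after their values were seen. Ccr2, S100a4 and Plac8 no longer passed with livers paired (adjusted p = 0.0551, 0.0534 and 0.0511).

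**Figure D5:**
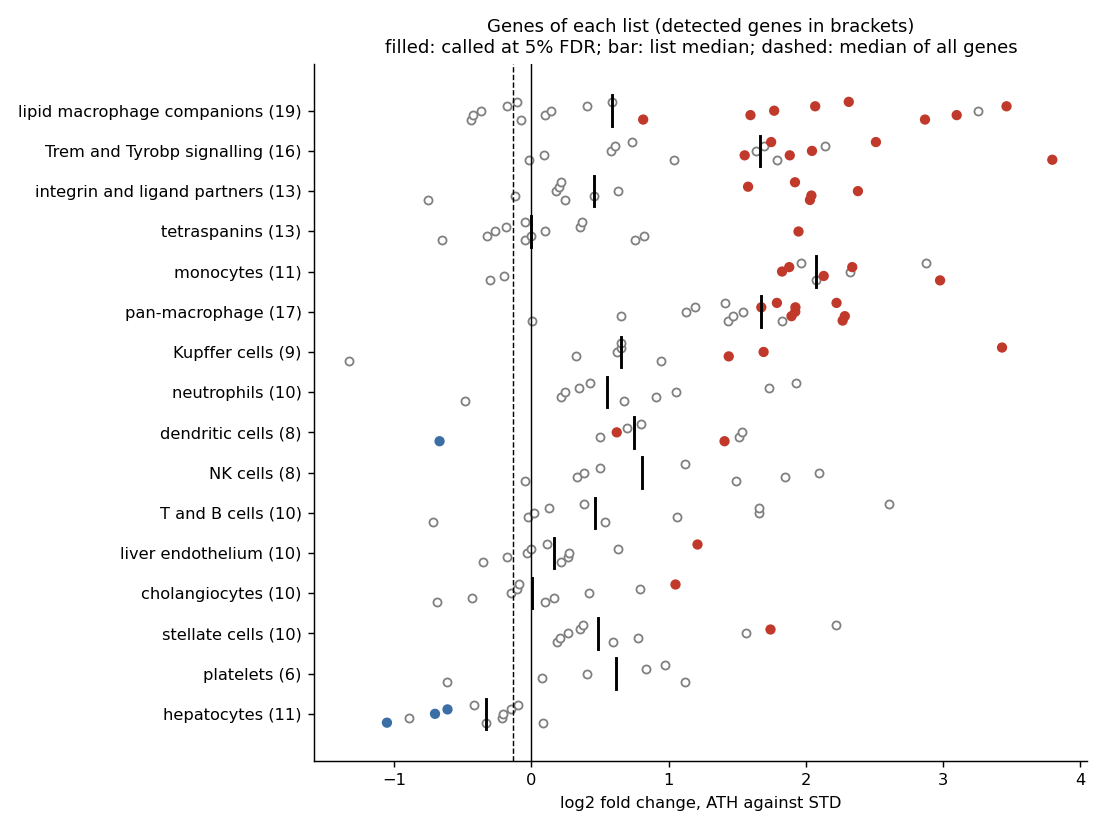
Log2 fold change, ATH against STD (horizontal axis), of every detected gene of each list at its brightest probe. Filled points passed a false discovery rate of 5% (red higher, blue lower), vertical bars are list medians and the dashed line is the median of all genes, -0.14. The monocyte, pan-macrophage and Trem and Tyrobp signalling lists have the highest medians, at 2.07, 1.67 and 1.67, and hepatocyte genes the lowest, at -0.33.

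Markers of other cells were followed as well. None of 10 neutrophil, 8 NK cell, 10 T and B cell and 6 platelet genes passed by limma, with medians of 0.55, 0.81, 0.46 and 0.62, and 2, 4, 5 and 0 of them rose when ATH replicate 2 was left out. In that setting 1238 of all 16556 genes rose. The neutrophil gene S100a8 was at 1.93 (SE 0.58, limma adjusted p = 0.0733). With livers paired by replicate number, S100a8, S100a9 and the platelet gene Pf4 passed (adjusted p = 0.0272, 0.0301 and 0.0460), and 0 of the NK, T and B cell genes. Of 8 dendritic cell genes, which matter here because those cells also carry Itgax, Batf3 rose by 1.41 and Flt3 by 0.62, Xcr1 fell by 0.67 and 5 did not pass, and with livers paired Batf3 and Flt3 did not either (adjusted p = 0.0764 and 0.0533). Lyve1 was the 1 of 10 endothelial genes that rose (1.21), Sox9 the 1 of 10 cholangiocyte genes (1.04) and Col3a1 the 1 of 10 stellate cell genes (1.74), while Pecam1 was at 0.26 and the cholangiocyte keratin Krt19 at 0.16. The cholangiocyte list, whose cells also make Spp1, had a median level between -2.89 and -2.53 in the STD livers and between -2.96 and -2.25 in the ATH livers. Of 11 hepatocyte genes, Tat fell by 1.05, Ass1 by 0.70 and Hpd by 0.61, the last 2 of which were lost with livers paired (adjusted p = 0.0682 and 0.0532). The median of that list was -0.33, but 0.11 without scaling. The part of any of these cell types in the changes of the members was not tested.

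Promoters of 9 of the listed genes (all but Tyrobp), 11 sequences in all, were available from RefSeq on GRCm38.p6 as 250 bases before to 50 bases after the gene's start. Searched on both strands, the core GAGGAA of the macrophage factor PU.1 lay in 6 of the 11 (5 of the 9 genes), the AP-1 site TGANTCA in 3 and the E-box CACGTG in 0. Among all 32851 promoters of this length, 28.3% held the first, 7.81% the second and 7.15% the third. The promoters with an AP-1 match belong to Trem2, Gpnmb and Itgax, each of which rose, and they are shown for that reason, with matches to any of these motifs in capitals. Cd9 and Lgals3 rose too and hold none of the motifs. Of the genes with a PU.1 core, Trem2 rose, Spp1, Itgam and Cd63 did not pass, and Ly6c1 has no probe of its name. A link between a motif and a rise was not tested. The AP-1 match starts 9 bases before the start in Trem2, 56 bases before it in Itgax and at position 8 after it in Gpnmb. Trem2 also holds a PU.1 core, on the minus strand, at 40 bases before the start. All 3 lie on the plus strand, Trem2 at chr17:48346151-48346450, Gpnmb at chr6:49036268-49036567 and Itgax at chr7:128129300-128129599. A match is a description of letters and was not tested for binding.
Trem2 promoter: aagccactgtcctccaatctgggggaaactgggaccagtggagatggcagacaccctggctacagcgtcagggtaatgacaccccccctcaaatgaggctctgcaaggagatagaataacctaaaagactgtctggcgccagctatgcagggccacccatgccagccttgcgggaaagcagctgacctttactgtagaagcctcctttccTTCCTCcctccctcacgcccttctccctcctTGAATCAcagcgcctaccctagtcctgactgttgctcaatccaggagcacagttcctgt
Gpnmb promoter: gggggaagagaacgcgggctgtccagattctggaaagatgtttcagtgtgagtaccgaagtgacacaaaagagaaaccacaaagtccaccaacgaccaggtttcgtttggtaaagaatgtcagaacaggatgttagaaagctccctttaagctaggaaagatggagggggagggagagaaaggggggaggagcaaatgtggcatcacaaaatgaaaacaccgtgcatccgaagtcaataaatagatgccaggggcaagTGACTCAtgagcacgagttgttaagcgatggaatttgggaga
Itgax promoter: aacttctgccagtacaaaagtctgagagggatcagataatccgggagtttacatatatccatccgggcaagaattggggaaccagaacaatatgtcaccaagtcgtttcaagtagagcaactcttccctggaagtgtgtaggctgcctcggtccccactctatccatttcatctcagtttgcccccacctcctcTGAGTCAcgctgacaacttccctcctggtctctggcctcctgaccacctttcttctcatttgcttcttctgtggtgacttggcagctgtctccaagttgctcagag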

How the data were processed

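Liver RNA of 4 STD and 4 ATH mice was hybridized to 1-color Agilent 4×44K arrays, 1 liver per array, and scanned and read by the authors with Agilent Feature Extraction version 9.5, per the labels' processing notes. The deposited array output holds processed spot intensity values, background-subtracted and detrended, and flags for detection and outliers. A second deposited file, by the authors, gives log2 values, whose scaling is not given in the sources used here and which served as an alternative. Groups came from the diet in the labels. The number of arrays limits the precision.

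Spots of a probe were averaged without flagged outliers, and the 75th percentile of log2 signals over non-control probes was subtracted from each array. A probe was called detected when well above background, positive and significant, and not an outlier on 3 or more arrays of one of the diets. Diet was tested with limma version 3.58.1 (lmFit and eBayes, two-sided, Benjamini-Hochberg over 31055 probes) in R version 4.3.3, and summaries and plots used Python version 3.11.15, pandas 2.3.3 and matplotlib 3.10.9. The methods' own call was a test of unequal variance at 1%. On simulated data in which 200 of 31042 probes were changed by 2 log2 units, 92.5% were recovered, with 6 false calls. The simulated noise was independent between probes and equally wide in both diets. In the data the spread could differ by diet, as for Lgals3 (SD 0.08 in STD and 1.0 in ATH livers). The simulation therefore does not measure the error rate of the calls given here. Where all STD arrays were below background, a fold was also formed against each array's lowest well-detected signal. That signal is a floor and not a strict limit of detection.

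Gene lists were named through RefSeq (22944 probes by accession, 6664 by symbol, 3108 by synonym, while 8458 kept the file's name), at the brightest detected probe. Named genes are all members, up to 4 called genes of largest change per list, and fixed defining markers. The members and lists were chosen with earlier results of these data known. Positions of probes follow the design's own assembly (mm7). The main fits were not paired. Replicate numbers, which match slide positions, were taken as pairing only in the alternative with a replicate block. Deviations from the group means correlated at 0.100, 0.230, 0.182 and 0.177 for numbers 1 to 4. For each number, this was the highest correlation of that STD array with any ATH array. Alternatives changed the background correction, scaling, filter, test, threshold, block and left-out array. For comparison with macrophage lists, the planned median of a list's levels on each array and, added after seeing the data, the median over its genes of the difference from each gene's STD mean were subtracted.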

Additional observations from a re-analysis of the deposited data

Results flagged for a closer look

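Tyrobp on the STD diet was flagged because STD replicate 3, at a level of 1.53, lay apart from the others, whose nearest was 1.31 and farthest 1.28 (gap over range 0.886 by Dixon's test). It was 1 of 26 groups examined (13 probes, 2 diets), and chance flags about 1 group in 20. Without that liver the log2 fold change was 2.05 and no longer passed 5% (limma adjusted p = 0.0735).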

How the results depend on the processing

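The count of 8 member probes was 8 with normexp background correction (7 of them the same probes), quantile normalization, median scaling, the deposited log2 table and the replicate block that pairs livers by number (all 8 the same with each of the last 4), and 7 to 10 with the other filters and scalings. The count was 1 at a rate of 1% and 0 by the methods' unequal-variance test, which called 22 probes in all (9 of the 13 members and 32 of the 72 companions at an unadjusted p under 0.05), and it ran from 5 to 10 when 1 liver was left out, lowest without STD replicate 1. Cd63 also passed with normexp, without scaling and with spike-in scaling (adjusted p = 0.0280, 0.0249 and 0.0459), and Spp1 without scaling (0.0438). No member's direction reversed at its brightest probe. The 25 companion genes became 48 without scaling, 13 with no filter on dim probes, 2 at 1%, 0 by the unequal-variance test, 14 with the replicate block and 8 to 37 with 1 liver left out, with 8 without STD replicate 3 or 4 or ATH replicate 3 or 4, 9 without STD replicate 1 and 11 without STD replicate 2. Relative to the pan-macrophage genes, 6 member probes were called in either direction, 3 with no filter on dim probes, 0 by the unequal-variance test, 2 at 1%, 0 without moderated variances, 6 with the replicate block and 2 to 6 with 1 liver left out, while with the list's change taken gene by gene 6 were called with moderated variances, 7 without them and 6 without ATH replicate 2 as well. Relative to the Kupffer cell genes, 6 were called, 3 by the unequal-variance test, 6 with the replicate block and 6 to 8 with 1 liver left out. With that list's change taken gene by gene, 9 were called with moderated variances, 6 without them and 7 without ATH replicate 2 as well. Over all probes, the 2482 calls became 6394 with normexp, 7365 without scaling, 1085 with no filter, 164 at 1%, 22 by the unequal-variance test, 1383 with the replicate block and 394 to 3986 with 1 liver left out. The block changed no call on the members. Use of both Ly6c probes left the member count at 8, the unmoderated and gene-by-gene fits were added after seeing the data, and the causes of these shifts were not tested. For probes at background on every STD array, the fold is set against a floor and is not a strict minimum.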
